A study of Mus musculus with 16 samples.

Results

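The genes described here are the 10 mouse genes of the interferon-inducible proteasome and of peptide loading onto MHC class I: Psmb8, Psmb9, Psmb10, Psme1, Psme2, Erap1, Tap1, Tap2, Tapbp and Tapbpl. They were taken from the count tables by gene symbol, and all 10 were found among the 18635 genes in the deposited count tables. Of the 10, all were tested in KPC tumours, while 8 passed the filter on low counts in ID8.

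The study knocked out Trp53bp1, which encodes the DNA double-strand break repair protein 53BP1, in mouse cancer lines, implanted the lines into syngeneic mice and sequenced RNA of the samples labelled as tumours. There were 3 samples from ID8 Trp53bp1 KO and 3 from ID8 WT, ID8 being a mouse ovarian surface epithelial cancer line. There were 5 samples from KPC Trp53bp1 KO and 5 from KPC WT, KPC being a mouse pancreatic cancer line. The question was how loss of 53BP1 in the cancer cells bears on the immune response to the tumour. No treatment was given, only the implanted cells carry the knockout and the host keeps its own Trp53bp1. Neither the number of clones behind each line nor the age of the mice is given in the sources used here. The extraction notes speak of cells rather than tissue.

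The proteasome cuts intracellular proteins into peptides. Interferons induce alternative catalytic subunits, encoded by Psmb8, Psmb9 and Psmb10, which take the places of the constitutive subunits encoded by Psmb5, Psmb6 and Psmb7, and an activator cap made of the Psme1 and Psme2 products. Peptides enter the endoplasmic reticulum through the transporter made of the Tap1 and Tap2 products, are trimmed by the peptidase encoded by Erap1, and are exchanged on class I molecules with the help of tapasin (Tapbp) and the tapasin-related editor TAPBPR (Tapbpl). Leukocytes are known to express most of these genes without added interferon, so leukocytes in a tumour can add to the measured levels.

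Libraries held 17902867 to 19727536 counts, so that 3 counts correspond to 0.1521 to 0.1676 CPM. Levels below are CPM, the counts of a gene as a share of the library total, scaled with TMM factors within each line. Trp53bp1 measured 17.8, 18.5 and 18.8 CPM in ID8 KO, against 44.7, 49.4 and 44.1 CPM in ID8 WT. In KPC it measured 27.9 to 37.9 CPM in KO and 46.7 to 56 CPM in WT, so that every KO library of a line was below every WT library. A set of 15 leukocyte markers summed to 0.102 to 0.308 CPM in ID8 KO and 0 to 0.261 CPM in ID8 WT, with 11 of 15 at 0 in each group, among them Ptprc, the pan-leukocyte marker CD45, and Cd3e of T cells. The same markers summed to 1273, 693, 789, 1333 and 807 CPM in KPC KO replicates 1 to 5, against 430, 409, 593, 936 and 366 CPM in KPC WT. The ID8 libraries thus hold almost none of these marker transcripts, although they are labelled as tumours. A set of 3 endothelial markers summed to 0.868 to 1.28 CPM in ID8 KO and 2.15 to 2.66 CPM in ID8 WT, against 199 CPM or more in KPC. A set of 4 fibroblast markers summed to 110 to 130 CPM in ID8 KO and 183 to 242 CPM in ID8 WT, against 3967 CPM or more in KPC. Epithelial markers (Krt8, Krt18, Krt19, Epcam and Cdh1) had counts in every library, but Epcam and Cdh1 were low in ID8. Epcam measured 0.613 to 0.976 CPM in ID8 KO and 2.87 to 3.53 CPM in ID8 WT, against 120 CPM or more in KPC. Cdh1 measured 0.46 to 0.616 CPM in ID8 KO and 0.626 to 1.1 CPM in ID8 WT, against 606 CPM or more in KPC.

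Every tested value of the 10 genes had a positive log2 fold change of KO over WT, 8 in ID8 and 10 in KPC, and 5 genes passed the test in each line. Calls rest on edgeR's quasi-likelihood test with Benjamini-Hochberg adjustment over all genes tested, at 0.05. In ID8, 5 of 8 tested genes rose and 0 fell, beside 25.4% of all 11933 genes tested that rose and 25.5% that fell. The median log2 fold change of the 8 genes was 0.28, against 0.01 over all genes. In KPC, 5 of 10 rose and 0 fell, beside 6.67% of all 14283 genes tested that rose and 7.01% that fell, and the median was 0.86 against -0.01 over all genes. Psme2, Tapbp and Tapbpl rose in both lines, Erap1 and Tap2 passed the test in ID8, and Psmb10 and Psme1 passed it in KPC. In a bulk sample, fewer cells of a type and less RNA per cell cannot be told apart.

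**Figure D1:**
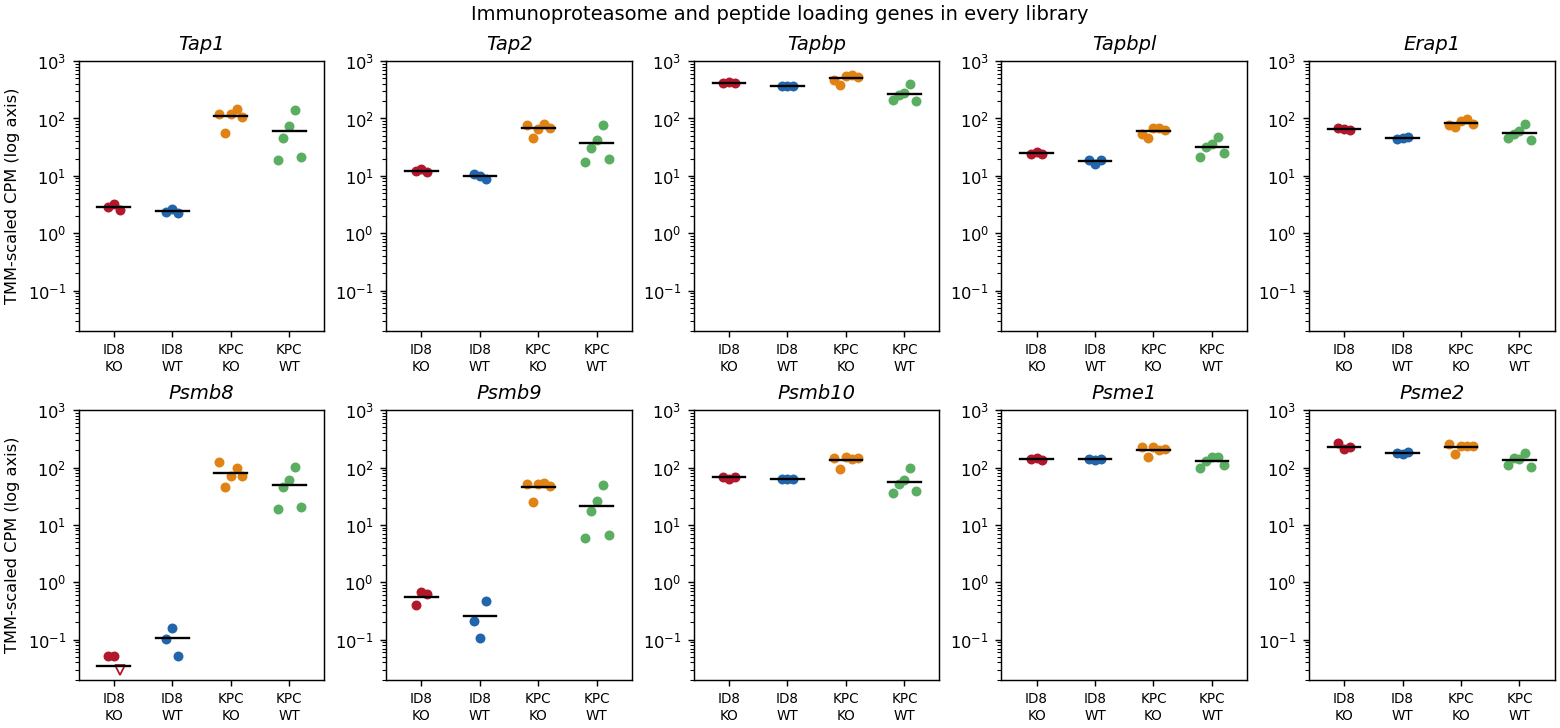
TMM-scaled CPM of the 10 genes in every library on a log axis, with KO left of WT in each line; each point is a library, the bar is the group mean, and the open triangle is a library at 0. Psmb8 and Psmb9 lie below 1 CPM in all 6 ID8 libraries and between 5.95 and 125 CPM in the KPC libraries.

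Of the catalytic subunits, Psmb10 (the MECL-1 subunit, which replaces the one encoded by Psmb7) passed the test in KPC and the others did not. It measured 147, 95.3, 155, 140 and 146 CPM in KPC KO replicates 1 to 5, against 36, 51.7, 60.8, 96.3 and 38.4 CPM in KPC WT. Replicate 2 was the low library of the KO group and replicate 4 the high library of the WT group, and the groups overlapped by that pair alone. Psmb10 rose by 1.27 on the log2 scale (SE 0.26, edgeR adjusted p = 0.0153). In ID8, Psmb10 measured 69.2, 64.4 and 68.4 CPM in KO and 62.8, 63.7 and 63.9 CPM in WT. These groups did not overlap, yet the difference of 0.09 did not pass (SE 0.0517, edgeR adjusted p = 0.184).

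Psmb9 (LMP2) and Psmb8 (LMP7) spread more widely between KPC libraries than Psmb10. Psmb9 measured 52, 25.2, 50.9, 53.6 and 48 CPM in KPC KO, against 5.95, 17.3, 26.1, 48.8 and 6.78 CPM in KPC WT. Psmb8 measured 125, 45.4, 69.9, 96.8 and 72 CPM in KPC KO, against 18.7, 46.2, 60.8, 104 and 20.7 CPM in KPC WT. WT replicate 4 reached the KO level for both genes, while WT replicates 1 and 5 were the low libraries. Neither difference passed, with log2 fold changes of 1.13 for Psmb9 (SE 0.539, edgeR adjusted p = 0.178) and 0.71 for Psmb8 (SE 0.475, edgeR adjusted p = 0.323). Among the 5 WT tumours the highest level of Psmb9 was 8.2 times the lowest, and that of Psmb8 was 5.55 times the lowest.

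In ID8 both genes were near the detection limit. Psmb9 had 8, 13 and 12 counts in ID8 KO and 4, 2 and 9 counts in ID8 WT. Psmb8 had 1, 1 and 0 counts in ID8 KO and 2, 3 and 1 counts in ID8 WT, all at or under the floor of 3 counts, so no fold is given. Pooled over libraries, the 33 counts of Psmb9 in KO and 15 in WT gave a ratio of 2.26 (95% exact interval 1.19 to 4.48, counting error only). Both genes were removed by the count filter and were not tested in ID8. With no filter, Psmb9 differed by 1.09 on the log2 scale (edgeR adjusted p = 0.0744) and did not pass. The gene passed the filter in 4 fits that left out 1 library. It was called without WT replicate 3 (1.80, edgeR adjusted p = 0.0149), and not without WT replicate 1 (0.94, edgeR adjusted p = 0.173), WT replicate 2 (0.71, edgeR adjusted p = 0.241) or KO replicate 1 (1.27, edgeR adjusted p = 0.058).

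Psmb9 and Tap1 are divergent neighbours on chromosome 17 in RefSeq GRCm38.p6, which is another build than the GRCm39 of the count tables. The stretch of 225 bases between their annotated starts (chr17:34187331-34187555, printed on the plus strand, on which Tap1 runs to the right and Psmb9 to the left) is shown because 1 stretch serves both genes. Its single CCAAT box is in capitals.

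Tap1/Psmb9: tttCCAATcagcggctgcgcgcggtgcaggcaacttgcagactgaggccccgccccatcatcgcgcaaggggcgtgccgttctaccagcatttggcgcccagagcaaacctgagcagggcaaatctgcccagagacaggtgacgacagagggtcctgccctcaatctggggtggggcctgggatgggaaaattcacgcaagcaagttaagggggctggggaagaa

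The letters CCAAT, on either strand, occur in 37.4% of the 32851 RefSeq windows that run from 250 bases before to 50 after a gene's start. Windows were found for 8 of the 10 genes, and Tap2 and Tapbpl are named only. Tap1 and Psmb9, which share this stretch, had the widest WT range of the 10 genes in KPC and were near or below 3 CPM in ID8. Psmb8, which does not share it, came next in that range (5.55 times) and had 0 to 0.158 CPM in ID8. Any part of the stretch in these levels was not tested.

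Psmb8 lies beside them on chromosome 17. The 150 bases before its start (chr17:34198045-34198194, plus strand) are shown with the interferon-gamma activated site in capitals, 97 bases before the start.

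Psmb8: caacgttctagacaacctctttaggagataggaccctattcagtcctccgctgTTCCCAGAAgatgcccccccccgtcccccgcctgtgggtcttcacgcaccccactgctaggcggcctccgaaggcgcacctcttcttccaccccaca

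That site was searched as TTCNNNGAA on both strands, and 8.3% of all windows hold it. Psmb8 was the only one of the 8 genes with a match in its window. A match is a description of letters, and binding was not measured.

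Relative to the constitutive subunit it replaces, Psmb10 stood higher in KPC KO. Per kb of transcript (the longest APPRIS principal transcript in GENCODE M21), Psmb10 was 87.8% ± 13.2 of Psmb7 in KPC KO and 37.8% ± 16 in KPC WT (SD, n = 5 each). The KO values ran from 68.8% to 103% and the WT values from 24.6% to 63.9%, so the groups did not overlap. The log2 ratio differed by 1.29 (exact two-sided permutation p = 0.00794, the smallest that 5 against 5 can give, adjusted p = 0.0317 over the 4 ratios of the line). Psmb7 itself differed by 0.04 (SE 0.106, edgeR adjusted p = 0.796).

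The other subunit ratios did not pass in KPC. Psmb9 was 17.4% ± 5.44 of Psmb6 in KO and 10% ± 8.93 in WT (SD, n = 5 each, exact permutation adjusted p = 0.119). Psmb8 was 42.2% ± 13.5 of Psmb5 in KO and 27.5% ± 17.7 in WT (SD, n = 5 each, exact permutation adjusted p = 0.119). Without WT replicate 4 both passed, at log2 differences of 1.62 for Psmb9/Psmb6 (exact permutation adjusted p = 0.0423) and 1.10 for Psmb8/Psmb5 (exact permutation adjusted p = 0.0476). In ID8, Psmb10 was 35.3% ± 2.95 of Psmb7 in KO and 32.7% ± 1.34 in WT (SD, n = 3 each), and Psmb9 was 0.245% of Psmb6 in KO and 0.111% in WT. Psmb8 went the other way, at 0.0168% of Psmb5 in ID8 KO and 0.054% in ID8 WT, from 0 to 3 counts of Psmb8 per library. No ratio can pass in ID8, since the exact test of 3 against 3 cannot go below 0.1.

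**Figure D2:**
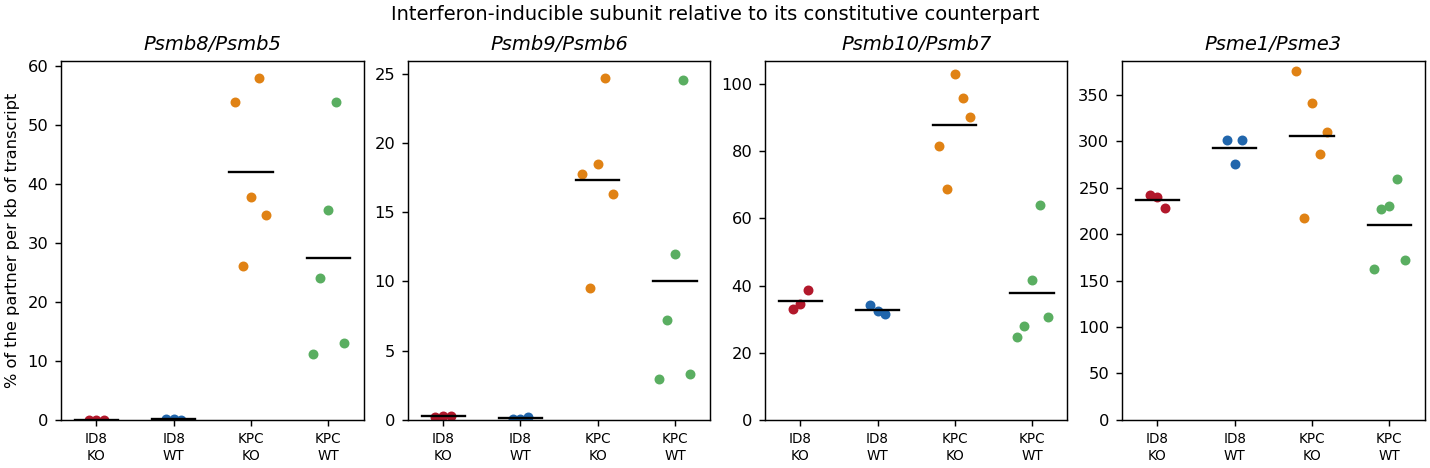
Level of the interferon-inducible gene as a percentage of its constitutive partner, both per kb of transcript, on linear axes that start at 0; points are libraries and bars are group means, with KO left of WT. Psmb10/Psmb7 is the panel in which the KPC groups do not overlap, 68.8% to 103% in KO and 24.6% to 63.9% in WT.

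The activator genes Psme1 and Psme2, which encode the alpha and beta chains of PA28, both rose in KPC. Psme1 measured 225, 151, 229, 205 and 211 CPM in KPC KO, against 98, 132, 151, 155 and 109 CPM in KPC WT. Psme2 measured 260, 170, 235, 239 and 240 CPM in KPC KO, against 111, 146, 140, 179 and 102 CPM in KPC WT. In both genes KO replicate 2 alone fell within the WT range. The log2 fold changes were 0.66 for Psme1 (SE 0.151, edgeR adjusted p = 0.02) and 0.75 for Psme2 (SE 0.16, edgeR adjusted p = 0.0163). The call of Psme1 was lost without WT replicate 5 (0.61, edgeR adjusted p = 0.0517), without KO replicate 1 (0.64, edgeR adjusted p = 0.0502) and without KO replicate 3 (0.64, edgeR adjusted p = 0.0505).

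In ID8, of these activator genes Psme2 passed and Psme1 did not. Psme2 measured 263, 207 and 226 CPM in ID8 KO and 176, 173 and 188 CPM in ID8 WT, with no overlap (log2 fold change 0.37, SE 0.0765, edgeR adjusted p = 0.00178). Psme1 measured 142, 147 and 133 CPM in ID8 KO and 140, 135 and 141 CPM in ID8 WT, with KO libraries on both sides of the WT range (0.02, SE 0.049, edgeR adjusted p = 0.805). Psme2 has a copy, Psme2b, that had 0.564% to 3.99% as many counts in each library, and the counting tool can split reads between them.

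Psme3, which encodes the gamma chain of a nuclear activator not induced by interferon, rose in ID8 KO by 0.33 (SE 0.0463, edgeR adjusted p = 2.19e-05). Psme1 was 236% ± 7.6 of Psme3 per kb in ID8 KO and 293% ± 14.6 in ID8 WT (SD, n = 3 each), and these groups did not overlap (exact permutation p = 0.1). In KPC the same ratio was 306% ± 60.1 in KO and 210% ± 41.4 in WT (SD, n = 5 each), a log2 difference of 0.54 (exact permutation p = 0.0317, adjusted p = 0.0635). Without KO replicate 2 that difference was 0.66 (exact permutation adjusted p = 0.0317), and without WT replicate 4 it was 0.62 (exact permutation adjusted p = 0.0423).

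Psme1 carries around its start a pair of the half-sites that interferon regulatory factors bind, and so does Erap1, the trimming peptidase. Both are shown because these are the 2 genes with that match. The pair was searched as GAAANNGAAA on both strands, and both genes hold it in the reverse complement, in capitals. It begins 9 bases after the start in Psme1 (chr14:55578394-55578523, plus strand) and 4 bases before the start in Erap1 (chr13:74639753-74639882, plus strand).

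Psme1: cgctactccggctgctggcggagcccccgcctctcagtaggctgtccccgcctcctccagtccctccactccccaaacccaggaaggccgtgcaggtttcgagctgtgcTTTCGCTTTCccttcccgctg

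Erap1: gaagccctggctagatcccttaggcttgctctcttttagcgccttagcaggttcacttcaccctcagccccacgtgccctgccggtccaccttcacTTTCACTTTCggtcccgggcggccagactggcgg

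Of all windows 3.44% hold this pair. The NF-kB consensus, which 8.46% of all windows hold, was found in 0 of the windows of the 8 genes.

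Erap1 had the smallest adjusted p of the 8 tested genes in ID8. It measured 68, 65.4 and 63.3 CPM in ID8 KO and 44.1, 46.4 and 46.8 CPM in ID8 WT, and the lowest KO library stood well above the highest WT library. Its log2 fold change of 0.52 passed the test (SE 0.0548, edgeR adjusted p = 8.01e-07). In KPC it measured 77.5, 69.8, 90.7, 97.1 and 78.9 CPM in KO, against 45.4, 54.4, 61.5, 79.3 and 42.8 CPM in WT. The groups overlapped through WT replicate 4, and the difference of 0.55 missed the threshold (SE 0.164, edgeR adjusted p = 0.0508). This miss turns on the method, since DESeq2 called Erap1 at 0.55 (adjusted p = 0.0118), limma-voom at 0.67 (adjusted p = 0.00963) and the joint edgeR fit at 0.56 (adjusted p = 0.0136). The change in KPC minus that in ID8 was 0.05 (SE 0.237, edgeR interaction adjusted p = 0.985).

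The transporter genes Tap1 and Tap2 followed the catalytic subunits in their spread. Tap1 measured 119, 56.8, 120, 146 and 107 CPM in KPC KO, against 19, 45.2, 73.9, 143 and 21.4 CPM in KPC WT. Tap2 measured 75.9, 46.1, 65.3, 80.5 and 68.9 CPM in KPC KO, against 17.1, 30.7, 42.3, 76.1 and 19.8 CPM in KPC WT. WT replicate 4 again lay within the KO range, and KO replicate 2 within the WT range. The log2 fold changes of 0.86 for Tap1 (SE 0.538, edgeR adjusted p = 0.294) and 0.85 for Tap2 (SE 0.375, edgeR adjusted p = 0.146) did not pass.

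In ID8 the transporter genes were expressed at low levels. Tap2 measured 11.9, 13.3 and 11.8 CPM in ID8 KO and 10.7, 10 and 8.98 CPM in ID8 WT, with no overlap (0.32, SE 0.0948, edgeR adjusted p = 0.0106). Its call was lost without KO replicate 2 (0.26, edgeR adjusted p = 0.0541) and without WT replicate 3 (0.25, edgeR adjusted p = 0.0585). Tap1 measured 2.91, 3.18 and 2.57 CPM in ID8 KO and 2.35, 2.69 and 2.26 CPM in ID8 WT, from 169 counts in KO and 139 in WT. These Tap1 groups overlapped, and the difference of 0.25 did not pass (SE 0.167, edgeR adjusted p = 0.233).

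Tapbp and Tapbpl, which act on the class I molecule itself, rose in both lines. Tapbp measured 469, 382, 547, 570 and 526 CPM in KPC KO, against 211, 253, 279, 392 and 200 CPM in KPC WT (0.90, SE 0.184, edgeR adjusted p = 0.0145). Tapbpl measured 54.4, 46.5, 69.5, 68.1 and 63.4 CPM in KPC KO, against 21.2, 31.6, 35.6, 47.4 and 24.9 CPM in KPC WT (0.91, SE 0.205, edgeR adjusted p = 0.0201). In both genes the groups overlapped only through KO replicate 2 and WT replicate 4. The call of Tapbpl was lost without WT replicate 5 (0.83, edgeR adjusted p = 0.0501).

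In ID8 neither gene overlapped between the groups. Tapbp measured 409, 430 and 423 CPM in ID8 KO and 375, 371 and 364 CPM in ID8 WT, a small difference of 0.18 (SE 0.0446, edgeR adjusted p = 0.00257). Tapbpl measured 24.4, 25.7 and 24 CPM in ID8 KO and 18.5, 16.3 and 18.6 CPM in ID8 WT (0.47, SE 0.0735, edgeR adjusted p = 5.24e-05). Of the 8 genes tested in ID8, 6 had every KO library above every WT library, beside 29.2% of all genes tested. In KPC 0 of 10 did, beside 5.37% of all genes tested.

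**Figure D3:**
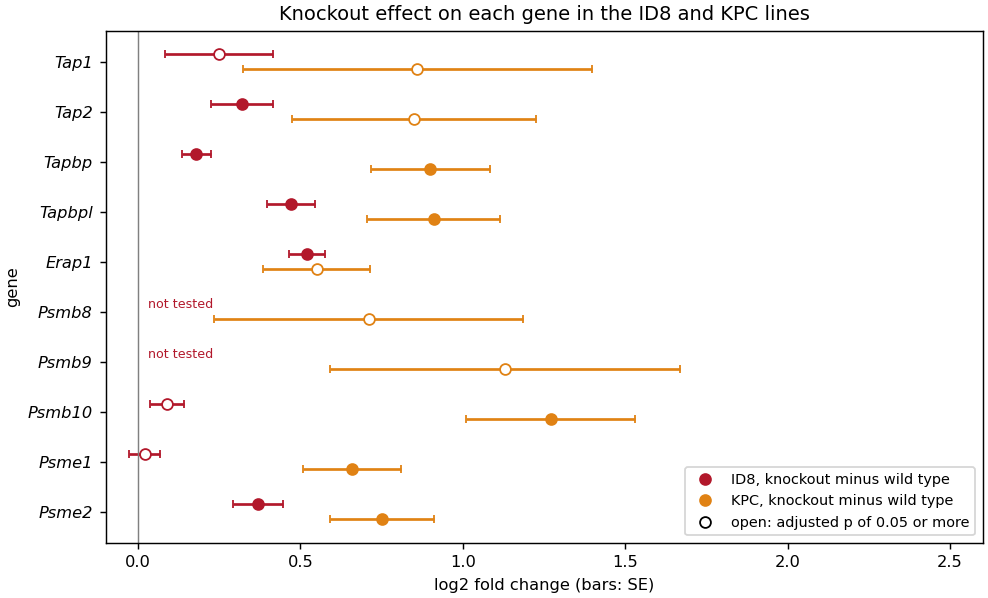
Log2 fold change of KO over WT for each gene in ID8 and in KPC, with bars for the SE; filled points have an edgeR adjusted p under 0.05. All tested values lie above 0, from 0.02 to 0.52 in ID8 and from 0.55 to 1.27 in KPC, where the SE reaches 0.539.

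The difference between the lines was tested as an interaction over all 16 libraries. That fit shares its spread estimate between the lines, although their replicates spread differently. The coefficient of variation between replicates was 5.08% in ID8 and 25.1% in KPC when fitted alone, and 21.4% in the interaction fit. Each ID8 library held 0 to 6 leukocyte marker counts and each KPC library 6703 to 24040, so line and sample makeup cannot be told apart here. Of the 10 genes, 2 changed more in KPC than in ID8, and 0 changed less, beside 11.6% and 10.3% of all 14921 genes tested: Psmb10, by 1.20 (SE 0.37, edgeR adjusted p = 0.0313), and Psme1, by 0.67 (SE 0.216, edgeR adjusted p = 0.038). Tapbp missed the threshold (0.74, SE 0.262, edgeR adjusted p = 0.0566). For the other 7 genes the adjusted p was 0.262 or more, and for Psmb8 and Psmb9 the ID8 side rests on counts near 0. Without KO replicate 3 of KPC, or without any single ID8 library, edgeR called 0 of the 10 genes, with 3 at an unadjusted p under 0.05 each time. Without KPC WT replicate 5 or KPC KO replicate 1, 4 or 5, Psmb10 alone was called, and without KPC WT replicate 4 or KO replicate 2 the count was 3.

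Per kb of transcript, the order of the 10 genes was the same in both KPC groups. Psme2 was highest at 238 CPM per kb in KPC KO and 141 in KPC WT, followed by Psme1 (184 in KO, 116 in WT), Tapbp (172 in KO, 92.1 in WT) and Psmb10 (104 in KO, 43.2 in WT). Psmb8, Tap1, Psmb9, Tapbpl and Tap2 came next in that order, and Erap1 was lowest at 14.7 in KO and 10 in WT. Neighbours in this order overlapped between libraries, except Tapbp and Psmb10 in KO. In ID8 Psme2 was also highest, at 241 CPM per kb in KO and 186 in WT, but Erap1 ranked above the transporter genes and Psmb9 and Psmb8 were last. There Tap1 stood at 0.977 CPM per kb in KO and 0.823 in WT. The neighbours in the ID8 order did not overlap in KO, while in WT Tapbp and Psme1, Erap1 and Tapbpl, and Psmb9 and Psmb8 overlapped.

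In KPC the 10 genes shared the libraries at the ends of each group, though not the order between them. WT replicate 4 was the highest WT library for 10 of 10 genes, and WT replicates 1 and 5 were the lowest pair for 10 of 10. KO replicate 2 was the lowest KO library for 10 of 10, whereas the highest KO library was replicate 4 for 5 genes, replicate 3 for 3 and replicate 1 for 2. The highest WT level was 8.2 times the lowest for Psmb9, 7.54 times for Tap1 and 4.45 times for Tap2, but 1.58 times for Psme1 and 1.76 times for Psme2. The leukocyte marker sum was also highest in WT replicate 4 (936 CPM) among WT libraries and lowest in KO replicate 2 (693 CPM) among KO libraries. The match was not complete: WT replicate 2 (409 CPM) had a lower marker sum than WT replicate 1 (430 CPM), and KO replicate 3 (789 CPM) had the next to lowest sum of its group but the highest level of Tapbpl, Psmb10 and Psme1.

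**Figure D4:**
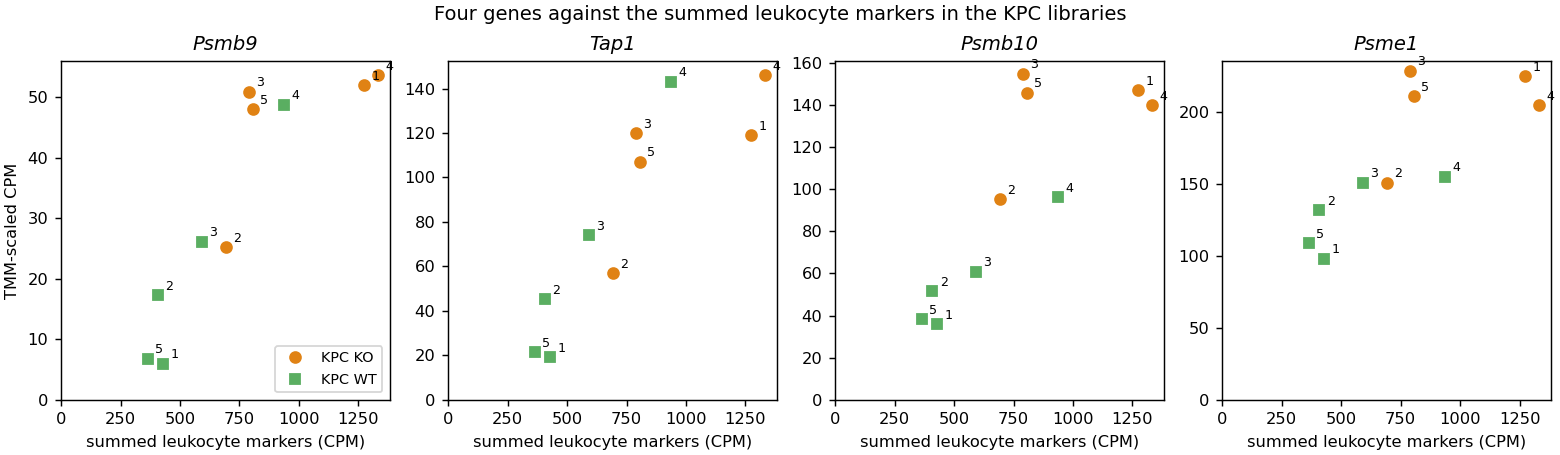
TMM-scaled CPM of Psmb9, Tap1, Psmb10 and Psme1 against the summed CPM of 15 leukocyte markers in the 10 KPC libraries, on linear axes; circles are KO, squares are WT and numbers are replicates. KO libraries have marker sums of 693 to 1333 CPM and WT libraries of 366 to 936 CPM, and the genes are low in WT replicates 1 and 5 and high in WT replicate 4.

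Leukocyte markers tended to be higher in KPC KO too. Of the 15 markers, 14 were tested in KPC, all 14 had a positive log2 fold change with a median of 1.21, and 2 rose (Cd79a of B cells and Itgax of dendritic cells and macrophages). With the mean log2 CPM of the markers as a covariate, edgeR called 0 of the 10 genes, beside 221 genes in all. At an unadjusted p under 0.05 it had 3 of the 10, of which 2 were higher in KO. The log2 fold change of Psmb10 was then 0.54 (SE 0.178, edgeR adjusted p = 0.179), that of Tapbp was 0.38 (SE 0.15, edgeR adjusted p = 0.253) and that of Psme1 was 0.26 (SE 0.163, edgeR adjusted p = 0.478). Psmb8 (-0.71, edgeR adjusted p = 0.143), Tap1 (-0.55, edgeR adjusted p = 0.403), Psmb9 (-0.23, edgeR adjusted p = 0.788) and Tap2 (-0.21, edgeR adjusted p = 0.591) turned negative, none past the threshold. The marker sum was 693 to 1333 CPM in KPC KO and 366 to 936 CPM in KPC WT. Marker level and genotype thus cannot be fully told apart in this fit, and the part of leukocytes in the KPC changes was not tested. In ID8 the 5 calls were made with 0 to 6 leukocyte marker counts per library.

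Epithelial markers differed between the KPC groups as well, while skeletal muscle markers spread widely and 0 of 4 passed the test (median log2 fold change -2.02). Muscle markers (Acta1, Ckm, Myh4 and Tnnt3) summed to 26.8, 3519, 4.7, 24.6 and 4823 CPM in KPC KO, against 1982, 24513, 1098, 5318 and 400 CPM in KPC WT. With the muscle score as a covariate edgeR called 0 of 10 genes, beside 438 genes in all, with 6 of the 10 at an unadjusted p under 0.05. All 10 stayed positive with a median log2 fold change of 0.79, and Psmb10 was at 1.23 (SE 0.32, edgeR adjusted p = 0.0715). Epithelial markers summed to 7990 to 9830 CPM in KPC KO and 4785 to 5997 CPM in KPC WT, and 4 of 5 rose. In ID8 they summed to 2779 to 2869 CPM in KO and 3609 to 3897 CPM in WT, and 4 of 5 fell. The part of the epithelial markers in the result was not tested.

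WT replicate 4 set several calls. Without it 9 of the 10 genes rose in KPC, beside 11.5% of all genes tested in that fit, with Tap2 at 1.29 (SE 0.273, edgeR adjusted p = 0.0115), Psmb9 at 1.71 (SE 0.461, edgeR adjusted p = 0.0305), Tap1 at 1.46 (SE 0.446, edgeR adjusted p = 0.0483) and Erap1 at 0.70 (SE 0.131, edgeR adjusted p = 0.00693) added. Psmb8 was at 1.16 (SE 0.421, edgeR adjusted p = 0.0813). Without WT replicate 5, 3 of 10 rose, namely Tapbp, Psmb10 and Psme2, beside 2.97% of all genes tested in that fit.

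**Figure D5:**
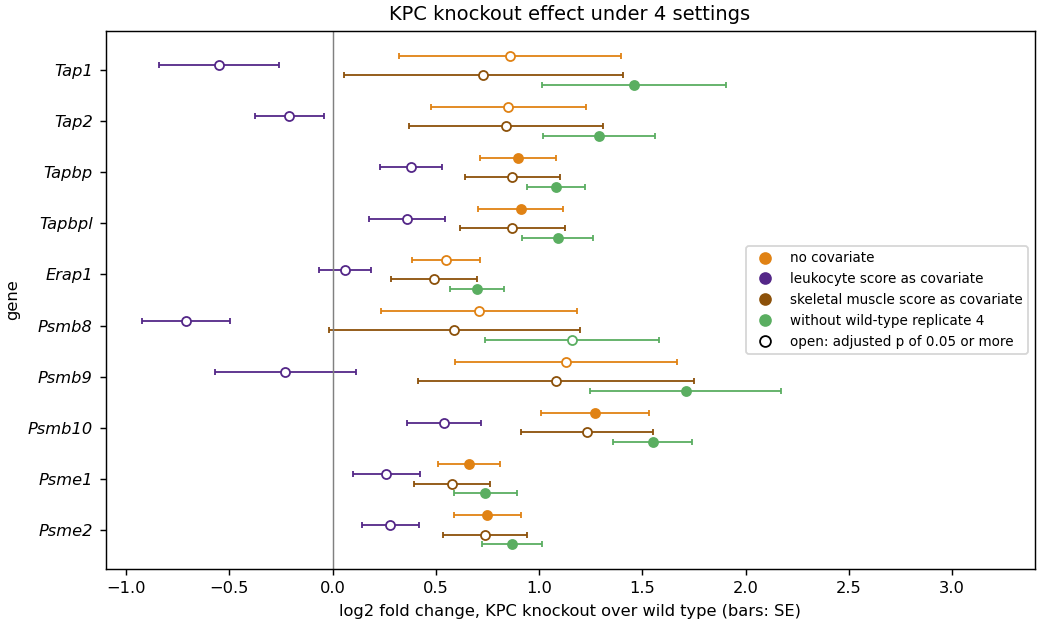
Log2 fold change of KO over WT in KPC for each gene with no covariate, with the leukocyte or the skeletal muscle score as a covariate, and without WT replicate 4; bars are the SE and filled points have an edgeR adjusted p under 0.05. Tap1, Tap2, Psmb8 and Psmb9 lie below 0 with the leukocyte score, from -0.71 to -0.21, and above 0 in the other settings.

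The genes most like the 10 across the KPC libraries were class I genes. Over the 10 KPC libraries, with each gene's log2 CPM centred on its group mean, the highest Pearson r with the mean of the 10 genes among 10495 candidates at 10 CPM or more belonged to H2-D1 (r = 0.997, Spearman rho 0.964, and r = 0.994 without the 2 libraries farthest from the median). H2-K1 (r = 0.996), B2m (r = 0.995), H2-T23 (r = 0.993) and H2-Q4 (r = 0.993) followed. Nlrc5, the class I transactivator, ranked 47 (r = 0.959). Ptprc ranked 177 (r = 0.883), while Psmb5 had r = 0.463, Psmb7 0.384 and Psmb6 -0.0199. These values describe libraries that share tumour makeup and depth, and the named genes were chosen as the highest.

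The classical class I molecules themselves, H2-K1, H2-D1 and the light chain B2m, had KPC log2 fold changes close to those of the transporter genes. H2-K1 was at 0.92 (SE 0.461, edgeR adjusted p = 0.198), H2-D1 at 0.91 (SE 0.369, edgeR adjusted p = 0.118) and B2m at 0.88 (SE 0.352, edgeR adjusted p = 0.117). In ID8, B2m rose by 0.42 (SE 0.0591, edgeR adjusted p = 2.17e-05) and H2-D1 by 0.27 (SE 0.0484, edgeR adjusted p = 0.000245), while H2-K1 was at -0.13 (SE 0.0659, edgeR adjusted p = 0.115). Of the general loading chaperones Calr, Canx, Pdia3 and Hspa5, 0 of 4 passed in either line, with medians of 0.00 in ID8 and 0.17 in KPC. At an unadjusted p under 0.05 edgeR had 0 of these 4 in ID8 and 2 in KPC.

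The other proteasome genes were counted in the same way, to be read beside the 25.4% of all genes tested that rose and 25.5% that fell in ID8, and the 6.67% and 7.01% in KPC. Of the constitutive catalytic genes, 0 of 3 passed in ID8, and Psmb6 rose in KPC by 0.34 (SE 0.091, edgeR adjusted p = 0.0339). Of the 11 structural genes of the 20S core, 6 fell and 0 rose in ID8, Psma7 by the most (-0.34, SE 0.0532, edgeR adjusted p = 5.45e-05), whereas in KPC 2 rose and 0 fell, Psmb3 by the most (0.36, SE 0.0884, edgeR adjusted p = 0.0266). Of the 18 genes of the 19S regulator, 5 rose and 2 fell in ID8, with Psmc5 (0.34) and Psmd12 (-0.24) at the ends, and 3 rose and 0 fell in KPC. Of the 8 other activators and assembly factors, Psme3 rose and the assembly factor Psmg4 fell (-0.46, SE 0.111, edgeR adjusted p = 0.00276) in ID8, and 0 passed in KPC, where edgeR had 2 at an unadjusted p under 0.05. Of 7 other peptidases, 3 fell in ID8, Npepps by the most (-0.39, SE 0.0519, edgeR adjusted p = 1.2e-05), and Blmh rose in KPC (0.29, SE 0.0541, edgeR adjusted p = 0.00991).

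Among 13 known regulators of these genes, 8 rose and 2 fell of the 11 tested in ID8, beside 25.4% and 25.5% of all genes tested. Irf2 fell by 0.17 on the log2 scale (SE 0.0626, edgeR adjusted p = 0.0339). In KPC 3 of 13 rose and 0 fell, beside 6.67% and 7.01% of all genes tested. Irf8, a factor of myeloid and B cells, rose by the most (1.12, SE 0.285, edgeR adjusted p = 0.0305), followed by Irf1 (0.99, SE 0.212, edgeR adjusted p = 0.017) and Jak2. Irf1 (0.40, SE 0.0459, edgeR adjusted p = 2.25e-06) and Jak2 (0.34, SE 0.0479, edgeR adjusted p = 2.07e-05) were also among the genes that rose in ID8. Nlrc5 had 0 to 3 counts in every ID8 library, and in KPC it was at 0.85 (SE 0.516, edgeR adjusted p = 0.277). Ifng, the gene of interferon gamma, had 0 counts in every ID8 library. In KPC, Ifng had 15, 2, 17, 18 and 9 counts in KO, against 2, 3, 5, 9 and 1 counts in WT, and it was not tested because of the count filter.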

How the data were processed

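RNA of 16 mouse samples was sequenced, and groups come from the labels. The submitters' processing notes name HISAT, RSEM 1.2.8 and the build GRCm39. The authors deposited expected counts for each gene (7.92% to 8.96% of a table's values not whole), which were rounded, with 0 for genes that a table does not list. Tests used edgeR 4.0.16 in R 4.3.3 (TMM scaling, filterByExpr, robust quasi-likelihood F test, Benjamini-Hochberg at 0.05), each line alone, with an interaction contrast over all libraries. The printed SE, |log2 fold change| over the root of F, is an approximation. CPM was scaled within a line; scaling over all 16 libraries gave 96.2% to 103% of it. Ratios used counts plus 0.5 and exact two-sided permutation tests. No library was a duplicate of another in its group, since the lowest chi-square per gene between replicates was 4.36. The fits were also run on simulated counts, drawn independently for each gene with a fixed spread per line. Genes that move together and outlying libraries were not simulated, and the outcome is not given here.

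The genes named are the 10 genes, Trp53bp1, the complete short lists, the largest called increase and decrease of each longer list per line, and the 5 genes most like the 10; Irf1, Jak2, Nlrc5, Ptprc, Cd79a, Itgax and Psme2b were named outside that rule, after their values were seen, and 1 gene under the rule is not reported here. The 10 genes and all lists were chosen with earlier results of these data known. Sequences and windows come from RefSeq GRCm38.p6, and lengths from GENCODE M21. Ifnb1 was not analysed here. Alternatives were median-of-ratios scaling, DESeq2 1.42.0, limma-voom (limma 3.58.1), other count filters, genes listed in every table, a replicate block, a joint fit, marker covariates, another pseudocount and leaving out each library.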

Additional observations from a re-analysis of the deposited data

Results flagged for a closer look

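Among 28 groups of values tested for a library far from the others, of which chance flags about 1 in 20, KPC KO replicate 2 stood apart as the low library for 3 genes. Its gap to the next KO library was 0.8 of the group's range for Psmb9, 0.744 for Psmb10 and 0.725 for Psme2. This library also had the lowest leukocyte marker sum of the KO group (693 CPM) and a skeletal muscle marker sum of 3519 CPM; their part in the low values was not tested. The log2 fold change of Psmb10 was 1.20 higher in KPC than in ID8 (SE 0.37, interaction adjusted p = 0.0313 by edgeR). That of Psme1 was 0.67 higher (SE 0.216, interaction adjusted p = 0.038 by edgeR). Neither was called without KPC KO replicate 3 or without any single ID8 library. The lines also differ in leukocyte marker content, whose part was not tested.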

How the results depend on the processing

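Over the alternatives, 468 of 542 recomputed values for single genes kept their direction and their side of the threshold. The joint fit, whose spread is shared by both lines, called 2681 genes and 0 of the 10 in ID8 (edgeR; 1 at an unadjusted p under 0.05), and 3524 genes in KPC. In KPC, DESeq2 called 3162 genes and limma-voom 3174, with 9 of the 10 genes by limma-voom. The leukocyte score covariate left 221 genes and 0 of the 10, and reversed Tap1 (-0.55), Tap2 (-0.21), Psmb8 (-0.71) and Psmb9 (-0.23). The muscle score covariate left 438 genes and 0 of the 10. For the interaction, limma-voom called 4972 genes and 5 of the 10. The cause of these shifts was not tested.

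Leaving out each library gave 4 to 5 of the 10 genes in ID8, 3 to 9 in KPC and 0 to 3 for the interaction. The counts over all genes were 5355 to 5786 in ID8, 934 to 3106 in KPC and 2294 to 3551 for the interaction. Psme1 in ID8 ranged from -0.02 to 0.06, the interaction of Psmb9 from -0.66 to 0.66 and that of Erap1 from -0.04 to 0.21. In KPC the log2 ratio difference ranged from 1.16 to 1.51 for Psmb10/Psmb7, from 0.46 to 0.66 for Psme1/Psme3, from 0.53 to 1.1 for Psmb8/Psmb5 and from 0.86 to 1.62 for Psmb9/Psmb6. For Psmb10/Psmb7 the adjusted p was 0.0635 without KO replicate 1, 3, 4 or 5.

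Replicate numbers did not pair the samples: correlations of same-numbered deviations were -0.12, 0.17 and -0.11 in ID8 and -0.16, 0.56, 0.18, 0.31 and -0.54 in KPC, and 1 of 3 and 1 of 5 samples matched its own number best. With a replicate block, 5852 genes were called in ID8, 1665 in KPC and 2755 for the interaction. The block added Erap1 in KPC (0.57, edgeR adjusted p = 0.0202) and the interaction of Tapbp (0.77, edgeR adjusted p = 0.0249). The interaction of Psme1 was at 0.68 (edgeR adjusted p = 0.058), and Psmb10/Psmb7 in KPC at 1.29 (exact paired permutation adjusted p = 0.0833), a test that cannot pass because 5 pairs give no p below 0.0625. With 13 or fewer counts per ID8 library, Psmb8 and Psmb9 are limited by depth there.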
